A study of Mus musculus with 2 samples.

Results

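The genes described here encode the acid hydrolases of the lysosome, proteins of its membrane, soluble helpers, inhibitors and regulators of its proteases, and the subunits of the vacuolar proton pump. They were taken by symbol: 27 named genes and every gene whose symbol starts with Atp6v, matched to the array's annotation under current and former symbols. Of the 27 named genes 26 were found, Cd63 was not analysed here, and 20 pump genes were found. This gave 46 members of 18193 named genes, carried by 94 probe sets, where a probe set is the group of short probes that reads 1 transcript.

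Mammary glands were taken from CD1 female mice, bought at 6 weeks of age and then mated, that had nursed litters set to 6 pups. At day 10 of lactation the pups were removed by force. The day 0 group was taken at that point and the day 1 group 1 day later, and no other treatment, allele or transgene is named for either group. Each day is a single pool of RNA from 5 mice, read on 1 Affymetrix Mouse Genome 430 2.0 array. There is therefore 1 value per probe set and day, without any measure of how much the mice varied.

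Lysosomes break down proteins, lipids, glycans and engulfed material at an acid pH that the vacuolar proton pump maintains. The pump has a cytosolic sector, V1, which splits ATP, and a membrane sector, V0, which passes protons, and several of its subunits are encoded by alternative genes with different tissue ranges. In the mammary gland after weaning, the secretory cells that made milk begin to die, residual milk is taken up, and lysosomal proteases, cathepsins B and L above all, are known to take part in that regression.

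The values are MAS 5 signals, a linear brightness per probe set, scaled by the authors so that both arrays share a trimmed mean. Signals under a floor of 77.7 units, the median over both arrays, were raised to it before ratios were taken, and genes above it on at least 1 array are called measured. Each gene is represented by its brightest probe set. Values in brackets after a pair of signals, given for day 0 and then day 1, are log2 ratios of day 1 to day 0 unless a fold is named. Genes are counted as higher or lower from 2-fold on. With 1 array per day no difference has a replicate check, and no test was possible. Dim signals were lower on the day 1 array in general: the array medians were 94.2 for day 0 and 60.1 for day 1. Over all 13239 measured genes the median log2 ratio was -0.12. Bacterial transcripts spiked into each hybridisation, 15 probe sets, had a median log2 ratio of -1.16, so a ratio is best read against other genes. The milk protein genes Csn2 (80908 on day 0 and 31909 on day 1) and Wap (76344 and 32035) and the luminal keratin gene Krt8 (3178.5 and 23938) were bright on both arrays, and the tissue is labelled mammary gland.

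Of the 46 members, 43 were measured, and 42 of these lay above the floor on both arrays. On day 1, 11 of the 43 reached 2-fold in the higher direction, as did 10.4% of all measured genes, and 3 in the lower direction, as did 13.3%. The median log2 ratio of the members was 0.41, with quartiles of -0.20 and 0.97. The 11 higher members were Lgmn, Scarb2, Atp6v1b2, Cstb, Grn, Ctsa, Atp6v1a, Lamp2, Atp6v0b, Ctsd and Ctsl. The 3 lower ones were Atp6v1c2, Ctsc and Atp6v0e2. Another 5 members, Atp6v0e, Tfeb, Atp6v1h, Atp6v0d1 and Atp6v1e1, were between 1.5-fold and 2-fold higher. From 1.5-fold on, 16 members were higher, against 20.4% of all measured genes. Ratios below 0 were found for 16 of the 43, and for 7505 of all 13239 measured genes.

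**Figure D1:**
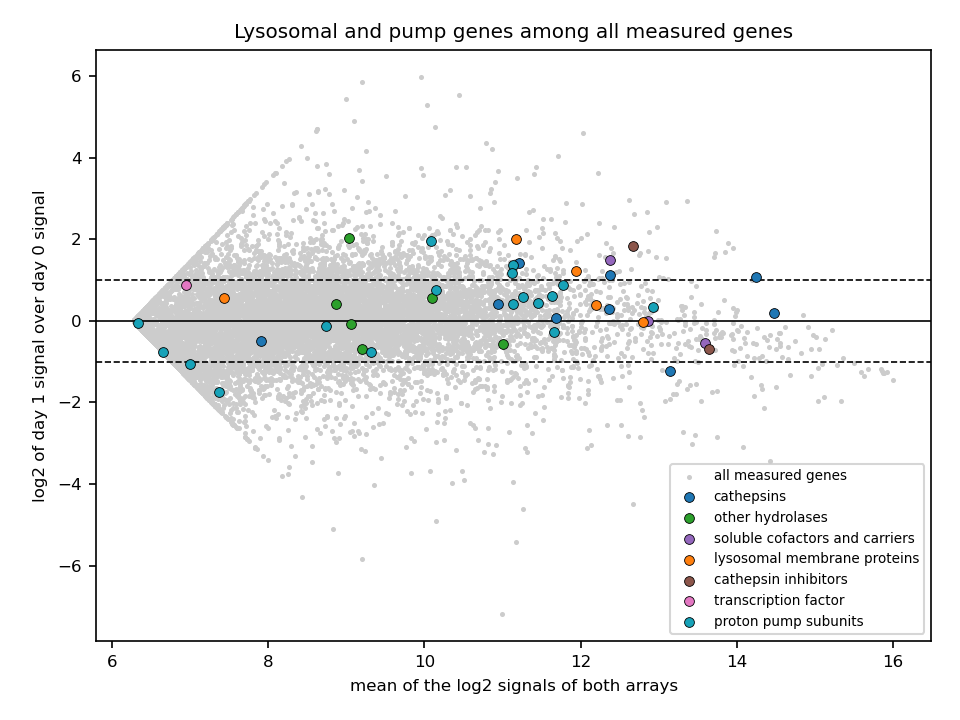
Log2 ratio of day 1 to day 0 signal (vertical) against the mean log2 signal of both arrays (horizontal) for 13239 measured genes in grey and the 43 measured members in colour by group, 1 point per gene; dashed lines mark 2-fold. Of the members 11 lie on or above the upper line and 3 on or below the lower line.

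The start regions of the members were read for the palindrome CACGTG, the core of the sites that the lysosomal regulator Tfeb and many other helix-loop-helix factors are known to bind. The window ran from 250 bases before to 50 bases after the gene start in the RefSeq annotation of GRCm38.p6, and the palindrome reads the same on both strands. Of 36 members with an entry, 11 held it (30.6%), against 8.09% of the 27025 genes in the table (7.15% of 32851 windows). It was in 6 of the 9 higher members with an entry (Ctsa, Ctsd, Ctsl, Lgmn, Atp6v1a and Atp6v0b), in 5 of 22 measured members under 2-fold (Lamp1, Glb1, Gaa, Atp6v0d1 and Atp6v0e) and in 0 of the 3 lower ones. The median log2 ratio was 1.06 over the 11 members with the palindrome (from -0.70 to 2.03) and -0.06 over the 23 measured members whose windows lacked it (from -1.74 to 2.00). The 23 include Atp6v1c2, Atp6v0e2, Atp6v1g2 and Atp6v1e2, dim pump genes of restricted expression, which the 11 do not. The groups thus differ in more than the palindrome. These are counts of letters in 1 window, and whether any match is bound was not tested. The members were picked as lysosomal genes, so their share above all genes describes the list and not day 1. Other lysosomal genes were not counted apart, and whether the palindrome goes with a higher ratio was not tested. Atp6v0a2, Atp6v0d2, Atp6v1b2, Atp6v1c1, Atp6v1g1, Atp6v1h, Cstb, Ctsb, Ctsh and Npc1 had no entry.

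The 150 bases before the start are printed for 5 higher members that hold the palindrome there and for Glb1, which holds it and had a lower day 1 signal. They are written 5′ to 3′ on the strand of the gene, with CACGTG in capitals. For Ctsa and Lgmn 1 of 2 listed starts is shown, the one farther inside the gene, since only its window held the palindrome.
Ctsa, chr2:164833623-164833772, plus strand: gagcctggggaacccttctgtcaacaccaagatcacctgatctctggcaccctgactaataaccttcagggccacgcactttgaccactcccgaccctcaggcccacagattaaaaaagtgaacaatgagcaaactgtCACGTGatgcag
Ctsd, chr7:142387828-142387977, minus strand: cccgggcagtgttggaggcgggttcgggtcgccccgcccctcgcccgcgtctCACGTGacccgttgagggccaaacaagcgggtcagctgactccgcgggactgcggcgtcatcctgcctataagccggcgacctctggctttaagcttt
Lgmn, chr12:102439093-102439242, minus strand: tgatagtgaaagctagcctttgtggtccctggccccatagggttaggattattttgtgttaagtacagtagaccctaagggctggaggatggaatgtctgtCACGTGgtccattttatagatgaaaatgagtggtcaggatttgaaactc
Atp6v1a, chr16:44139260-44139409, minus strand: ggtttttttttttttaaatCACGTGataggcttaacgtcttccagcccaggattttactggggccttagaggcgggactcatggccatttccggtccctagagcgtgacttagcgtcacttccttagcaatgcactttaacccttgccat
Atp6v0b, chr4:117887330-117887479, minus strand: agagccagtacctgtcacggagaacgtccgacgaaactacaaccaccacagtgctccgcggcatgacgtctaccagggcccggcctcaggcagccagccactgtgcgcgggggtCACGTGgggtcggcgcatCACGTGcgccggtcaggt
Glb1, chr9:114400928-114401077, plus strand: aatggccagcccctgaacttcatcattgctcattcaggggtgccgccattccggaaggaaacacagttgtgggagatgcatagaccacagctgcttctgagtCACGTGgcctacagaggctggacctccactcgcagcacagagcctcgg
Counted from the gene start, the palindrome began 12 bases before it in Ctsa (position -12, with a further copy at 5 inside the gene), at -245 (outside the printed bases) and -98 in Ctsd, at -49 in Lgmn, at -131 in Atp6v1a, at -36 and -18 in Atp6v0b and at -48 in Glb1. Lamp1 held 4 copies, at -61, -45, -28 and -15, although its signal was under 2-fold higher. In Ctsa, Ctsd, Atp6v1a, Atp6v0d1 and Atp6v0e a copy was flanked as TCACGTGA.

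Among the 9 cathepsins, the main proteases of the lysosome, 3 were higher on day 1 by 2-fold or more (all measured genes: 10.4%). Of the 9, 1 was lower (all measured genes: 13.3%), and the median log2 ratio was 0.28. Ctsa, a serine carboxypeptidase that also stabilises beta-galactosidase and neuraminidase, had a signal of 1448 on day 0 and 3867 on day 1, 2.67-fold higher. Its dimmer probe set went the other way, with 261.4 and 106.7 (-1.29), and the mean of both had a log2 ratio of 0.06. Ctsd, the major aspartic protease, went from 3579 to 7836 (2.19-fold), and the cysteine endopeptidase Ctsl from 13457 to 28112 (2.09-fold). All 3 were therefore near or under 3-fold, and Ctsd and Ctsl lay close to the 2-fold line. The day 1 signal of Ctsl was 70.1% of the highest on that array, a range in which probes can saturate.

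Ctsb, a cysteine protease with endopeptidase and carboxydipeptidase activity, had signals of 21460 and 24418, a log2 ratio of 0.19, at its brightest probe set. That day 1 signal was 60.9% of the highest of its array. Its dimmer probe sets gave larger ratios: 9181.5 and 13895 (0.60), 336.8 and 1619.5 (2.27), 325 and 688 (1.08), and 124 and 197.5 (0.67). All 5 probe sets of Ctsb were thus higher on day 1, by amounts that ranged from 1.14-fold to 4.81-fold. Ctss, the cathepsin of antigen-presenting cells, had 1714 and 2279 (0.41), and the carboxypeptidase Ctsz had 4766 and 5802 (0.28). The aminopeptidase Ctsh was nearly level, with 3221 and 3387 (0.07).

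Ctsc and Ctsk went the other way. Ctsc, the dipeptidyl peptidase that activates granule serine proteases, had a signal of 13811 on day 0 and 5927 on day 1, 2.33-fold lower. A dimmer probe set of Ctsc had a log2 ratio of -1.05. The dimmest was at the floor on day 1 and gave a bound of -0.36. Ctsk, a collagen-degrading cathepsin best known from osteoclasts, had 284.5 and 203.4 (-0.48). Ctse, an aspartic protease of endosomes that is no member but stood on the list of other lysosomal genes, had 2701 and 950.4 (2.84-fold lower), and -0.50 at its other measured probe set.

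**Figure D2:**
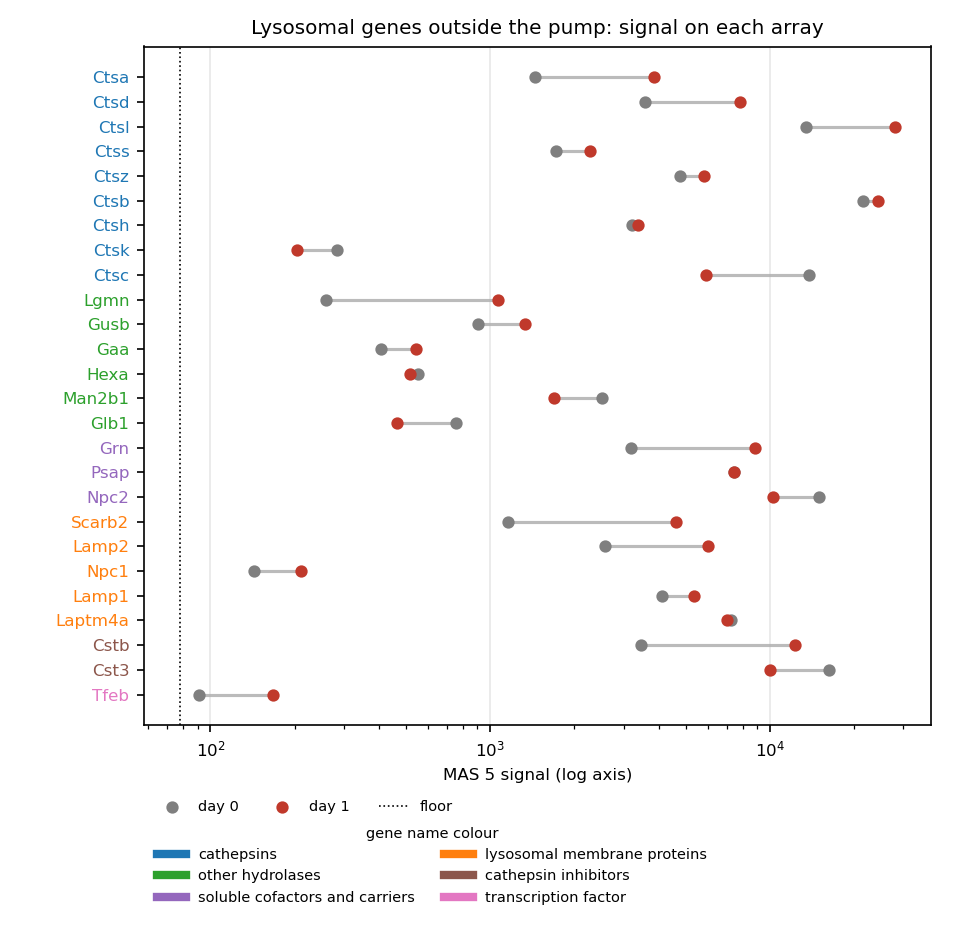
MAS 5 signal (log axis) of 26 lysosomal genes outside the pump on the day 0 array (grey) and the day 1 array (red), 1 array per day and the brightest probe set of each gene; the dotted line is the floor of 77.7. Red lies to the right of grey by at least 2-fold for Ctsa, Ctsd, Ctsl, Lgmn, Grn, Scarb2, Lamp2 and Cstb, and to the left by at least 2-fold for Ctsc.

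Of the 6 other hydrolases, 1 was at least 2-fold higher (all measured genes: 10.4%) and 0 lower (13.3%), with a median log2 ratio of 0.16. Lgmn, the asparaginyl endopeptidase that cleaves several cathepsins to their mature forms, had a signal of 259.8 on day 0 and 1064 on day 1 at its only probe set, 4.10-fold higher and the largest ratio of any member. The 5 glycosidases were all under 2-fold. Gusb, the beta-glucuronidase, had 903.2 and 1334 (0.56), with -0.27 at its dimmer probe set. Gaa, the acid alpha-glucosidase that degrades glycogen, had 406.1 and 541.9 (0.42), but its other probe set had 489.6 and 304.9 (-0.68), so its direction is not settled. Hexa, the alpha subunit of beta-hexosaminidase, had 550.8 and 517.2 (-0.09), the alpha-mannosidase Man2b1 2512 and 1691 (-0.57), and the beta-galactosidase Glb1 753.8 and 463.5 (-0.70). The group thus held 1 protease with a higher signal and 5 glycosidases on both sides of 0, and with the mean of all probe sets of each gene its median was -0.11.

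Among soluble proteins that assist the hydrolases, Grn alone was at least 2-fold higher. Grn encodes progranulin, which is secreted or carried to lysosomes and cut into granulins, and its 3 probe sets gave 3187 and 8872 (2.78-fold), 2686 and 8427 (1.65 log2), and 725.8 and 2456 (1.76 log2). Psap, the precursor of the saposins that present sphingolipids to hydrolases, was level at 7473 and 7469, with 0.33 log2 at its dimmer probe set. Npc2, which carries cholesterol out of the lysosomal lumen, had 14995 and 10236 (-0.55). Gm2a, the activator of ganglioside breakdown from the list of other lysosomal genes, had 17631 and 4630.1, 3.81-fold lower. The sphingolipid cofactors and the cholesterol carrier were therefore level or lower where Grn was higher.

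Of the 5 measured membrane proteins, 2 were at least 2-fold higher (all measured genes: 10.4%) and 0 lower (13.3%), with a median log2 ratio of 0.55. Scarb2, the membrane receptor that brings beta-glucocerebrosidase to lysosomes, had a signal of 1159.8 on day 0 and 4624 on day 1 (3.99-fold), and its other probe set had 731.8 and 2654 (1.86 log2). Lamp2, a heavily glycosylated coat protein that also serves in autophagy, had 2577 and 6001 (2.33-fold). All 4 probe sets of Lamp2 were higher, with log2 ratios from 0.69 to 2.07. Its relative Lamp1 had 4113 and 5351 (0.38). Npc1, the membrane partner of Npc2 in cholesterol export, had 143.3 and 210.1 (0.55), while the small membrane protein Laptm4a was level at 7238 and 7038 (-0.04).

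The 2 cystatins, which inhibit cysteine cathepsins, differed in direction. Cstb, the cystatin of the cytosol and nucleus, had a signal of 3466 on day 0 and 12317 on day 1, 3.55-fold higher, with 1312 and 4070.3 (1.63 log2) at its other probe set. Cst3, the secreted cystatin C, had 16248 and 10022 (-0.70). Tfeb, a transcription factor that drives lysosomal genes, had 91.3 and 167.4, 1.83-fold higher from a day 0 signal just above the floor. Of its relatives, Mitf had 352.9 and 128.1 (2.75-fold lower) and Tfe3 1290.4 and 880.3 (-0.55), and Tfec was under the floor on both arrays. As deposited, Tfeb was thus the only measured gene of this family with a higher day 1 signal, read from a dim signal. Tfeb was at least 2-fold higher in 6 of 6 scalings, 4 of which move all genes up by 1 factor.

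Of the 20 pump genes, 17 were measured. On day 1, 3 were higher by 2-fold or more (all measured genes: 10.4%) and 2 lower (13.3%), with a median log2 ratio of 0.42. In the V1 sector, Atp6v1b2, the B subunit of most tissues, had a signal of 553.4 on day 0 and 2133 on day 1 (3.85-fold), and the catalytic A subunit Atp6v1a had 1403 and 3598 (2.56-fold). A and B alternate in the ring that splits ATP, and both were higher. Another probe set of Atp6v1b2 was higher as well, with 137.4 and 668.8 (2.28 log2), whereas the dimmest measured one had 172 on day 0 and was below the floor on day 1 (a bound of -1.15), so the probe sets disagree. The second probe set of Atp6v1a gave 1310 and 3215 (1.30 log2).

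The stalk and regulatory subunits of V1 differed less. Atp6v1h, which regulates the coupling of the sectors, had 871.5 and 1482 (0.77), with -0.43 at a dim probe set. Atp6v1e1 had 2006 and 3019 (0.59), but 2 dimmer probe sets gave -1.30 and a bound of -0.63. Atp6v1c1 had 2419 and 3267 (0.43), Atp6v1f 1941.5 and 2601 (0.42), and Atp6v1g1 6914 and 8704 (0.33). Atp6v1d, the central rotor, had 3582 and 2945 (-0.28), with its other probe sets at -0.09 and 0.26. All of these were under 2-fold, and Atp6v1d was the 1 broadly expressed V1 gene with a lower day 1 signal.

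In the V0 sector, Atp6v0b, a proteolipid of the proton-carrying ring, had a signal of 1490 on day 0 and 3348 on day 1 (2.25-fold). Its 3 probe sets had log2 ratios of 1.02, 1.16 and 1.17. Atp6v0e had 2587 and 4761 (0.88) and Atp6v0d1, which joins the ring to the V1 rotor, 2568 and 3905 (0.60). The large a subunits, which form the proton path and steer the pump to its membrane, were not higher: Atp6v0a1 had 445.1 and 410.1 (-0.12) and Atp6v0a2 834.2 and 489.3 (-0.77). Tcirg1, the a3 isoform of lysosomes in osteoclasts and other cells, likewise had 733.1 and 527.3 (-0.48). As deposited, the measured a subunits therefore stood on the opposite side of 0 from Atp6v0b and Atp6v0d1. Atp6v0a1, however, lay at the median of all measured genes (-0.12), with probe sets from a bound of -0.86 to 0.04. Atp6v0a1 was above 0 in 4 of 6 scalings and Atp6v0a2 in 1. Atp6v0b was the only gene of the proton-carrying ring found and Atp6v0d1 the only d gene measured, so the rest of the ring has no value here.

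Grouped by the tissue range known for each isoform, a split made after the values were seen, the pump genes fell on different sides. Of 13 broadly expressed genes, 10 had a log2 ratio above 0, with a median of 0.59. Over all 13239 measured genes, 5732 lay above 0 and 7505 below. Among the 13, 3 were at least 2-fold higher (all measured genes: 10.4%) and 0 lower (13.3%). Of 7 genes with restricted expression, 3 were under the floor on both arrays and 4 were measured, with ratios below 0 and a median of -0.90 as deposited; Atp6v1e2 was above 0 in 6 of 6 scalings, Atp6v1g2 and Atp6v0e2 in 1 and Atp6v1c2 in 0. Atp6v1c2, a C subunit of kidney and lung, had 302.1 and 90.5 (3.34-fold lower), and Atp6v0e2, an e subunit best known from brain, 184.2 and 89 (2.07-fold lower). The neuronal Atp6v1g2 had 131 and 68.9, below the floor on day 1, a bound of -0.75, and the testis isoform Atp6v1e2 82.6 and 79.3 (-0.06). Atp6v1b1 (22.4 and 14.5), Atp6v0a4 (63 and 43.6) and Atp6v0d2 (54.2 and 37.4), known from kidney and, for Atp6v0d2, osteoclasts, were under the floor on both arrays. Restricted isoforms were dim, and dim probe sets in general were lower on day 1. After loess, which fits such a trend over all probe sets, the restricted median, over 4 genes, was -0.51 and the broad median 0.48. With scaling on the spiked controls these medians were 0.17 and 1.75. Whether loess removes the trend for signals this near the floor was not tested.

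**Figure D3:**
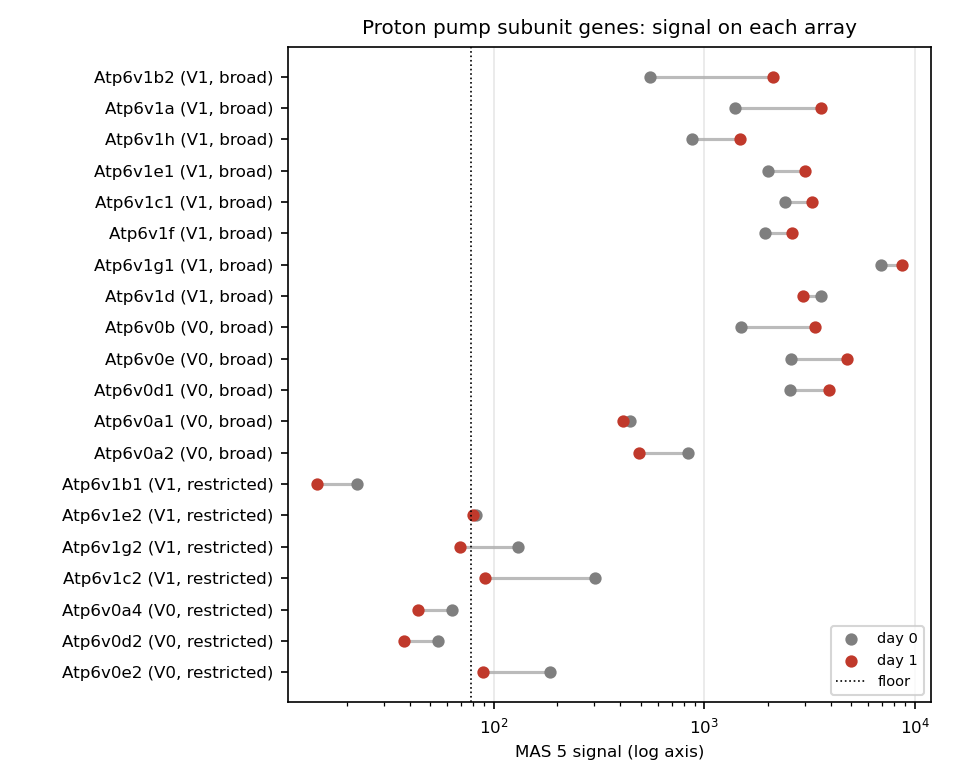
MAS 5 signal (log axis) of 20 pump genes on the day 0 array (grey) and the day 1 array (red), 1 array per day, with the sector (V1 or V0) and the isoform range (broad or restricted) in brackets; the dotted line is the floor of 77.7. The 13 broadly expressed genes all lie above the floor and 10 of them are higher on day 1. The 7 restricted genes lie at or below 302.1 and 0 are higher as deposited, although Atp6v1e2 is higher in 6 of 6 scalings. Over all 13239 measured genes, 5732 had a ratio above 0.

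Probe sets of the same member often differed. Of 84 measured probe sets of members, 23 were higher by 2-fold or more and 7 lower, against 9.86% and 12.6% of all 22699 measured probe sets with 1 gene symbol. Of the 8 higher members with several measured probe sets, 5 (Scarb2, Cstb, Grn, Atp6v1a and Atp6v0b) were at least 2-fold higher at every one, and Lamp2 was higher at every one but not always 2-fold. Ctsa and Atp6v1b2 each had a dimmer probe set with a lower day 1 signal. Probe sets of 4 members disagreed, here meaning that a further one had the opposite sign and a size of 0.5 log2 or more: Ctsa, Gaa, Atp6v1b2 and Atp6v1e1. Where each probe set lies in its transcript was not examined. Across the array, in 3943 genes with 2 or more probe sets readable on both days, the pooled SD within a gene was 0.56 log2; it says nothing of the mice.

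**Figure D4:**
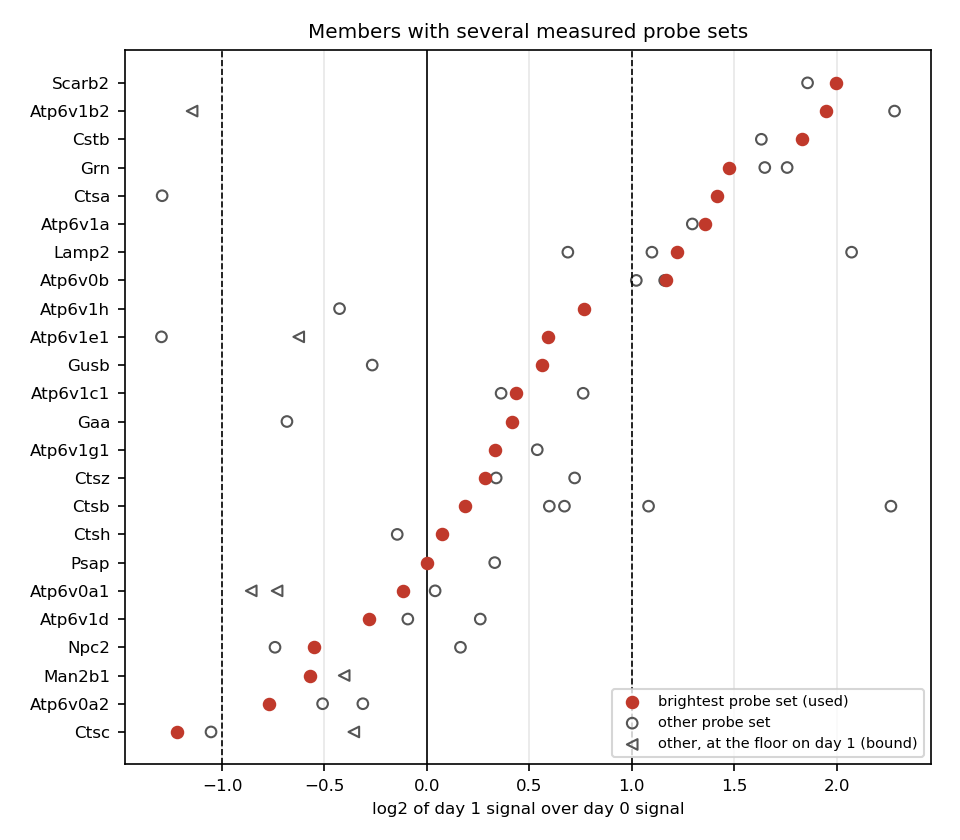
Log2 ratio of day 1 to day 0 for each measured probe set of the 24 members with several; red is the brightest probe set, used in the text, open circles are the others, and triangles are probe sets at the floor on day 1, which give a bound. Dashed lines mark 2-fold, and Ctsa, Atp6v1b2, Atp6v1e1 and Gaa have points well on both sides of 0.

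Other lysosomal genes were spread about 0. From lists of 66 other lysosomal hydrolases, membrane and sorting genes, pump-associated genes, Tfeb relatives and cystatins, 54 were measured, 6 of them higher by 2-fold or more (all measured genes: 10.4%) and 8 lower (13.3%), with a median log2 ratio of -0.06. Of the 25 hydrolases among them 3 were higher and 4 lower. Of the 22 genes listed as membrane and sorting genes 3 were higher and 3 lower, and the soluble Gm2a is 1 of those 3 lower ones. The higher hydrolases included Gla, the alpha-galactosidase (45.8 and 307.9, at least 3.96-fold), and Manba, the beta-mannosidase (75.8 and 282.7, at least 3.64-fold), both below the floor on day 0 and thus bounds. The lower ones included Galns, the sulfatase of keratan sulfate (1384 and 443.8, 3.12-fold), and Sort1, the sorting receptor sortilin (4193 and 1462, 2.87-fold), beside Ctse, Gm2a and Mitf. Vps33a, a subunit of the complex that tethers late endosomes to lysosomes, was 2.99-fold higher (111.1 and 332.5), but its other measured probe set had -0.14. The pump accessory genes Atp6ap1 (3517 and 3824, 0.12), Atp6ap2 (6268 and 9207, 0.55) and Vma21 (931.6 and 585.9, -0.67) were under 2-fold. The difference between the members and these lists was not tested.

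Lysosomal genes are expressed by most cells of the gland and strongly by macrophages, and in whole tissue fewer cells of a type and less RNA per cell cannot be told apart. Of 15 macrophage markers 14 were measured, and their median log2 ratio was 0.47. Of these markers 5 were higher by 2-fold or more (all measured genes: 10.4%) and 1 lower (13.3%). Their summed signal was 11712 on day 0 and 39229 on day 1, or 7895 and 10218 without Cd14, which had 3817 and 29011 and is not confined to macrophages. Cd68, itself a lysosomal membrane protein, had 173.1 and 508.2, Lyz2 1477 and 3280.3, and Csf1r 1399 and 1841, although the probe sets of Csf1r ranged from -1.12 to 0.45. C1qa had 1729.5 and 736.5 (2.35-fold lower), Adgre1 665.6 and 375.2 (-0.83), Mertk 284.7 and 203.5 (-0.48) and Aif1 228.2 and 171.1 (-0.42), while Itgam was under the floor on both arrays. Luminal markers were split: 5 of 10, the 4 keratins and Cdh1, were at least 2-fold higher and 4, among them the milk protein genes, were lower. Fibroblast markers (2 of 8 higher, 0 lower) had a median of 0.45, and adipocyte markers (0 of 6 higher, 2 lower) one of -0.28. The 2 lower adipocyte markers were Lpl (43817 and 9937) and Cidea (67825 and 18455), the latter in the brightness range of the milk protein genes. The others were under 2-fold: Adipoq -0.10, Fabp4 0.22, Retn -0.47 and Lep 0.93. Of 5 osteoclast markers, listed because of Ctsk, 4 were measured, 1 was lower (Ocstamp, to below the floor) and 0 were higher. The part of these cell types in the members' ratios was not tested.

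The size of every ratio depends on how the arrays are scaled. Of the 6 scalings, 4 multiply an array by 1 factor, which moves all genes alike and so holds the difference between members and other genes nearly fixed by construction; quantile normalization and loess do not. Against the median of all measured genes, the median of the members was 0.53 log2 higher with the deposited scaling and between 0.31 and 0.60 log2 higher under the 11 alternatives that keep the threshold, with 0.35 for quantile normalization and 0.38 for loess. Scaling on the spiked controls moved the median of all genes to 0.97 and left 31 of the 43 members, against 48.7% of all genes, at least 2-fold higher. Loess placed the median of all genes at -0.01 and that of the members at 0.37, with 12 members higher against 12.2% of all genes.

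**Figure D5:**
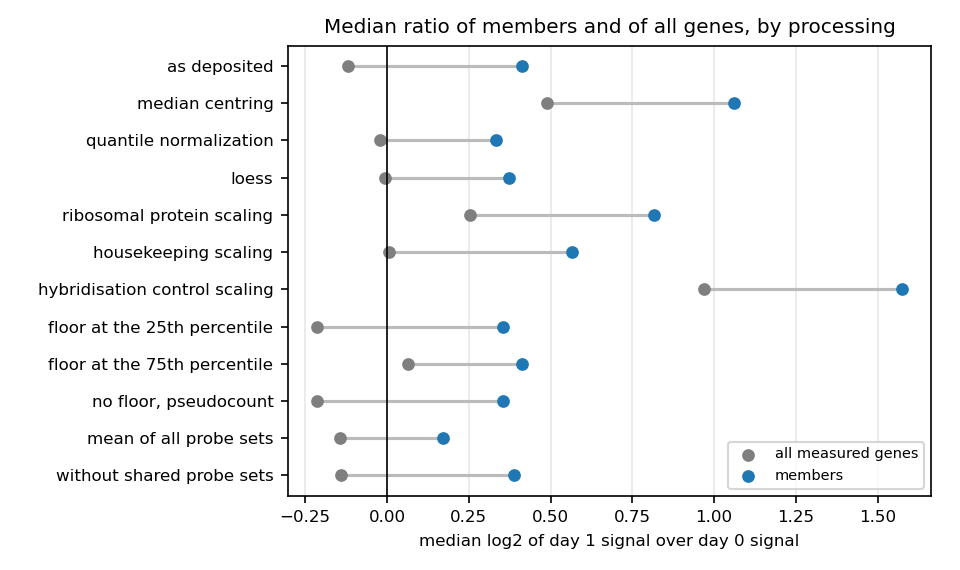
Median log2 ratio of day 1 to day 0 for all measured genes (grey) and for the members (blue) with the deposited values and under 11 alternatives. The 4 scalings by 1 factor move both medians together by construction, and the members lie to the right of all genes in each of them, by 0.31 to 0.60 under the alternatives.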

How the data were processed

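RNA pooled from 5 mice per day was measured on 1 array per day. Per the labels, the authors made the deposited signal intensities with the statistical algorithms of Affymetrix Microarray Suite 5.0 (MAS5 in the submitters' processing notes). Both arrays had a mean of 250 after trimming 2% of probe sets at each end, so the intensities carry 1 factor per array. No source used here names the scaling target. Of 45101 probe sets, 64 controls were left out, 34945 had 1 gene symbol, 932 had several and were not used, and 9160 were unnamed here. Symbols were updated by gene identifier to RefSeq GRCm38.p6. No annotation of the array's build was used, so members have no coordinates beyond their RefSeq promoters.

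Ratios and counts were computed in Python 3.11.15 (numpy 2.4.6, pandas 2.3.3, statsmodels 0.14.6). The ratios, and the scalings other than that on the spiked controls, were tested on known ratios put into the day 0 signals. The other alternatives and the reading of start regions were not tested in this way. The members and lists were chosen with earlier results of these data known. Every member is named; of the other lysosomal genes, the 6 largest ratios above the floor on both arrays are named, and others named with values there (Gla and Manba among them), Tcirg1, Tfe3, Tfec, the pump accessory genes and the markers, were added after their values were seen. Alternatives were 6 scalings, a lower and a higher floor (percentiles 25 and 75), a pseudocount of 16 in place of a floor, averages over probe sets, omission of probe sets with shared suffixes, and thresholds of 1.5-fold and 3-fold. Each scaling kept the probe set of each gene.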

Additional observations from a re-analysis of the deposited data

How the results depend on the processing

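Of the 11 alternatives at the 2-fold threshold, 4 scalings move all genes up by 1 factor, so a higher call cannot be lost there and a lower one can be lost by the shift alone. Over the other 7, 10 of the 11 higher members stayed at least 2-fold higher wherever they had a value. Ctsa was the exception, with a log2 ratio of 0.06 for the mean of its probe sets. The lower and higher floors could not lose a higher call, since all 11 had signals above 250, the higher floor, on both arrays. For Ctsd, Ctsl and Lgmn, with 1 measured probe set, the mean of probe sets could not change the ratio either. None of the 3 lower members stayed at least 2-fold lower wherever they had a value: Ctsc was at least 2-fold lower in 6 of 7, Atp6v1c2 in 5 of 6 and Atp6v0e2 in 3 of 6. Median centring gave 23 higher members (28.0% of all genes) and 1 lower (5.29%), with medians of 1.06 for all members, 0.93 for cathepsins, 0.81 for other hydrolases, 1.20 for membrane proteins, 1.07 for the pump and 1.24 for its broadly expressed isoforms. Scaling on the spiked controls gave 31 higher (48.7%) and 0 lower (2.28%), with medians of 1.57, 1.45, 1.33, 1.71, 1.58 and 1.75, and 0.17 for restricted isoforms. Both shift all genes, to medians of 0.49 and 0.97; the shift alone turned Atp6v0e2 to 0.11 with the spiked controls. Ribosomal protein scaling, which moved the median of all genes to 0.25, left 1 lower member (7.78% of all genes). A floor at the 75th percentile also left 1 (7.72% of all genes), with fewer members measured (38), and a restricted median of -0.27. Without shared probe sets 32 members were measured, 8 of them higher (9.56% of all genes) and 3 lower (13.6%). Ctsd, Ctsl and Atp6v0b were not measured there, and Atp6v1e1 had -1.30. The membrane median was 1.27, with Lamp1 not measured and Lamp2 at 2.07 from another probe set. At 1.5-fold 16 members were higher (20.4% of all genes) and 7 lower (27.2%), and at 3-fold 4 were higher (3.85%) and 1 lower (4.33%). With 1 array per day no library could be left out, and no paired analysis was possible because each day has 1 array. Signals near the floor limit Tfeb and the restricted pump isoforms.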
